A study of Mus musculus with 12 samples.

Results

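RNA for 10 secreted signalling proteins was followed in C2C12 cells, an immortalized mouse myoblast line that exits the cell cycle and forms muscle fibres when serum is lowered. The 10 genes are the CC chemokines Ccl5, Ccl2, Ccl7 and Ccl8, the CXC chemokines Cxcl1, Cxcl5, Cxcl10 and Cxcl12, the macrophage growth factor Csf1 and the cytokine Il6, taken by symbol from the 16288 genes listed in at least 1 library. They were chosen by measured values: Ccl5 was higher with PFI-3 at DM 48h and differed between the replicates of proliferating cells. Those 2 sets of values are therefore given as a description, without a test. All 10 passed the low-count filter that kept 12545 genes, but Ccl8 passed through its level in PFI-3-treated differentiating cells and Il6 through its level in PFI-3-treated proliferating cells, so that a difference in those groups was built into their selection. Their values are given, and the counts leave them out unless stated.

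The study treated cells with DMSO, the solvent, or with 50 uM PFI-3, which binds the bromodomains of BRM and BRG1, the ATPases of the SWI/SNF chromatin remodellers, and of PB1. It asked what these bromodomains do in muscle differentiation. The GM groups are proliferating cells in fetal bovine serum. The DM 24h and DM 48h groups were taken 24 h and 48 h after a change, near confluence, to horse serum with insulin. Exposure began 12 h before harvest or induction and was renewed every 24 h in differentiation medium, so the DMSO groups carry solvent throughout. Libraries A and B make up each of the 6 groups and are called biological duplicates of this 1 line, so p-values measure only the spread between these libraries. Medium, confluence, time and length of exposure changed together between GM and DM, and their parts in a stage difference cannot be told apart.

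Libraries held 12576374 to 13658352 expected counts. The spread between replicates was wider in GM than later: the SD of the log2 ratio of library B to A over 10656 genes was 0.333 with DMSO and 0.301 with PFI-3 in GM, against 0.138 to 0.151 in the 4 DM groups. The summed level of 10 myoblast and muscle markers in GM was 470.0 to 733 CPM (counts scaled to a common library total), 3639.6 to 3643 at DM 24h with DMSO against 2022 to 2028 with PFI-3, and 19120.1 to 19273 against 13076 to 13405 at DM 48h. Of 10 macrophage markers, 5 (Ptprc, Adgre1, Aif1, Tyrobp and Fcer1g) had at most 3 counts in every library. The list summed to 8.67 to 8.72 CPM with DMSO and 12.3 to 12.9 with PFI-3 at DM 24h, and to between 8.05 and 22.4 over all libraries, carried largely by Cd14 and Cd68. Of 9 T and B cell markers, 8 had at most 3 counts in every library, and the list did not exceed 3.06 CPM.

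Chemokines are small secreted proteins that bind G protein-coupled receptors and direct the movement of leukocytes and other cells; the CC and CXC families are named for the spacing of their first cysteines. Their genes are commonly switched on by NF-kappaB, by AP-1 and, for some, by interferon-responsive factors, and myoblasts release several of them during muscle injury and repair. Chemokines of this kind draw monocytes and neutrophils into muscle, Cxcl12 guides migrating muscle precursors, Csf1 supports macrophages, and Il6 is released by muscle cells and signals through a receptor shared with related cytokines.

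Promoter sequence was available for 6 of the 10 genes in the RefSeq table of build GRCm38.p6 (mm10): Ccl8, Cxcl1, Cxcl10, Cxcl12, Csf1 and Il6. The 4 shown are those with a match to the NF-kappaB consensus in the 250 bases before the annotated start. Cxcl1 was searched at chr5:90890995-90891244 on the plus strand, Cxcl10 at chr5:92348890-92349139 on the minus strand, Csf1 at chr3:107760470-107760719 on the minus strand and Il6 at chr5:30012864-30013113 on the plus strand. Capitals mark matches on either strand to the NF-kappaB consensus, the interferon-stimulated response element core, the AP-1 site TGANTCA or the TATA box TATAAA, and all sequences run 5′ to 3′.
Cxcl1: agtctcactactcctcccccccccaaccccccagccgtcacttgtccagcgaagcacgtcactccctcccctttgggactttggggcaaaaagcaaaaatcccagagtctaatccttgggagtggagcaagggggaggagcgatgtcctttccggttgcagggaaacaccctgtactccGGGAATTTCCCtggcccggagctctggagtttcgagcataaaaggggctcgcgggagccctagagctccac
Cxcl10: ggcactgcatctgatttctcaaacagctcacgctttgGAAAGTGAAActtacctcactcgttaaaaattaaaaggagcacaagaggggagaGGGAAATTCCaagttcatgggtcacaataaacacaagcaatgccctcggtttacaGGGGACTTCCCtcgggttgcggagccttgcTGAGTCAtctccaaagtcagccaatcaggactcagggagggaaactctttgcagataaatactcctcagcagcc
Csf1: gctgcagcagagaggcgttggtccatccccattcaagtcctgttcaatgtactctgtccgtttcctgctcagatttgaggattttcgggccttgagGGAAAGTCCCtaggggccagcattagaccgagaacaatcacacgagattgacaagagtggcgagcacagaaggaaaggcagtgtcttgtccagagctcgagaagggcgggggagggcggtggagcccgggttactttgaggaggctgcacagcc
Il6: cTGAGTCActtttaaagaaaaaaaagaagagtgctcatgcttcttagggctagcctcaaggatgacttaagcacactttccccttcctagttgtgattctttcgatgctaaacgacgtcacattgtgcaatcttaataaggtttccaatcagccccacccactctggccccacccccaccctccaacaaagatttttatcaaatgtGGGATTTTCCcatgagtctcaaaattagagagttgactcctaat
In Cxcl1 the capitals are a pair of overlapping NF-kappaB matches, GGGAATTTCC and GGAATTTCCC, that span positions -71 to -62 and -70 to -61, counted from the annotated start. Cxcl10 holds the interferon element GAAAGTGAAA at -213 to -204, the NF-kappaB match GGGAAATTCC at -159 to -150, the overlapping matches GGGGACTTCC and GGGACTTCCC at -104 to -95 and -103 to -94, and the AP-1 site TGAGTCA at -74 to -68. Csf1 has 1 NF-kappaB match, GGAAAGTCCC, at -154 to -145. Il6 has the NF-kappaB match GGGATTTTCC at -44 to -35 and the AP-1 site TGAGTCA at -249 to -243. The Ccl8 window (chr11:82114935-82115184, plus strand) held only a TATA box, and the Cxcl12 window (chr6:117168285-117168534, plus strand) held none of these letters. Among 32851 promoter windows of the same length, 7.25% held an NF-kappaB match, 2.98% the interferon element, 6.75% the AP-1 site and 12.4% the TATA box. A match describes the letters and is no evidence of binding.

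The genes lie in clusters. In GRCm38.p6 Ccl2 (82035577 to 82037452), Ccl7 (82045712 to 82047525) and Ccl8 (82115185 to 82116799) are neighbours on chromosome 11, with Ccl11 and Ccl12 between Ccl7 and Ccl8, and Ccl5 is farther along the chromosome (83525778 to 83530518). On chromosome 5, Cxcl5 (90759298 to 90761625) and Cxcl1 (90891245 to 90893121) lie in the CXC cluster, Cxcl10 (92346638 to 92348889) lies farther along and Il6 (30013114 to 30019975) is remote. Cxcl12 is on chromosome 6 and Csf1 on chromosome 3. Expected counts of the 10 genes were whole numbers in all 12 libraries, so no count shows a read divided between family members.

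**Figure D1:**
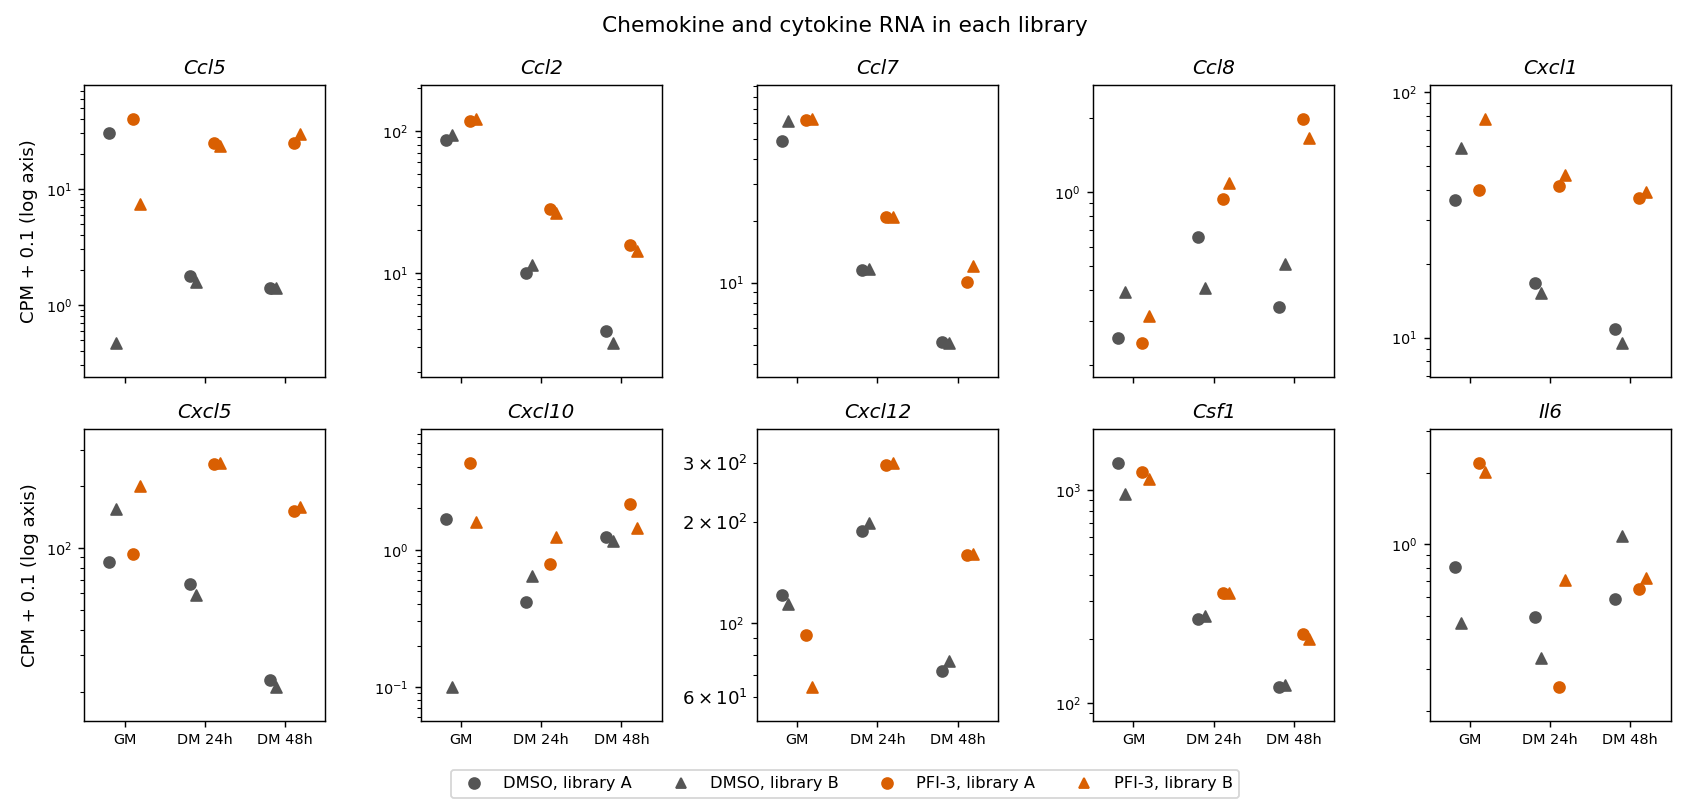
CPM plus 0.1 of each of the 10 genes (log axes, scaled per panel) by stage, with 1 point per library (circles library A, triangles library B; grey DMSO, orange PFI-3). At DM 24h the PFI-3 libraries lie above the DMSO libraries in every panel but Il6, and Ccl5 in GM falls from 29.9 CPM in DMSO library A to 0.369 CPM in library B.

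RNA for most of these genes was higher with PFI-3 at 24 h of differentiation. Of the 10 genes, 7 were called higher and 0 lower at DM 24h (edgeR quasi-likelihood test, Benjamini-Hochberg adjusted p under 0.05), where 12.2% of all genes tested were called higher and 11.4% lower. No gene of the 10 was lower at an unadjusted p under 0.05 either, by edgeR, DESeq2 or limma. The 7 were Ccl5, Ccl2 and Ccl7 of the CC family, Cxcl1, Cxcl5 and Cxcl12 of the CXC family, and Csf1. Without Ccl8 and Il6 the count is 7 of 8. The median log2 fold change was 1.07 over the 10 genes, 1.22 over those 8 and 0.00 over all genes tested. In 9 of the 10, every gene but Il6, both PFI-3 libraries lay above both DMSO libraries, which held for 35.3% of all genes tested. In bulk RNA, more cells that make a transcript and more of it per cell cannot be told apart. The muscle marker sum was lower with PFI-3 in these same libraries, and its part in the rise was not tested.

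Ccl5, a chemokine that attracts T cells and monocytes, had the widest difference at this stage. It stood at 1.66 and 1.47 CPM in the DMSO libraries and at 24.8 and 23.1 CPM in the PFI-3 libraries, from 21 and 19 against 326 and 303 counts. The replicates were close and the treatments far apart, 3.93 apart on the log2 scale (SE 1.25, adjusted p = 0.0394). All 6 groups share 1 spread per gene in this fit, and the Ccl5 replicates in GM differ widely. In an edgeR fit of only the 4 DM 24h libraries the SE was 0.17 (adjusted p = 3.45e-21). That fit called 46.5% of all genes it tested, against 23.6% in the fit of all 12 libraries. Ccl5 was not called by limma fits of log2(FPKM + 1) (adjusted p = 0.0636) or log2(FPKM + 0.1) (0.0853). Its call was also lost without any 1 of the 4 DM 24h libraries, in fits that called fewer of all genes tested. The log2 fold change stayed between 3.62 and 4.04 in all 13 alternatives.

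Ccl2 and Ccl7, neighbouring genes whose products attract monocytes through CCR2, moved less far. Ccl2 was 9.83 and 11.2 CPM with DMSO and 27.9 and 26.5 CPM with PFI-3, which is 1.37 on the log2 scale (SE 0.11, adjusted p = 5.40e-06). Ccl7 was 11.4 and 11.5 CPM with DMSO and 20.8 CPM in each PFI-3 library, which is 0.86 on that scale (SE 0.13, adjusted p = 0.000556). Both were called in all 13 alternatives, and their treatment groups did not overlap. Ccl8, another monocyte chemokine of the cluster, was near the limit of counting: 7 and 4 counts with DMSO and 11 and 13 with PFI-3, a log2 fold change of 1.07 (SE 0.47). The filter was passed through the higher group, so no test of this difference is read.

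Among the CXC chemokines, Cxcl5 and Cxcl1, both neutrophil attractants acting through CXCR2, rose most. Cxcl5 was 66.3 and 58.7 CPM with DMSO and 255 and 259.6 CPM with PFI-3 (log2 fold change 2.04, SE 0.30, adjusted p = 0.000588). Cxcl1 was 16.5 and 15.1 CPM with DMSO and 41.1 and 45.8 CPM with PFI-3 (1.46, SE 0.29, adjusted p = 0.00391). In these 2 genes each PFI-3 library exceeded each DMSO library by more than the replicates differed. Cxcl12, the CXCR4 and ACKR3 ligand, was already abundant at 188 and 198 CPM with DMSO and reached 295 and 300.3 CPM with PFI-3 (0.62, SE 0.12, adjusted p = 0.0028). Cxcl1, Cxcl5 and Cxcl12 were called in all 13 alternatives. Cxcl10, an interferon-inducible attractant of T cells, had 4 and 7 counts with DMSO and 9 and 15 with PFI-3, and its log2 fold change of 1.07 (SE 1.05) was not called (adjusted p = 0.501).

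Csf1 was 247 and 256 CPM with DMSO and 329 and 327 CPM with PFI-3, a log2 difference of 0.38 (SE 0.12, adjusted p = 0.0341). The groups did not overlap, but the call was lost without any 1 of the 4 DM 24h libraries, in fits that called fewer of all genes tested. The log2 difference in those fits was 0.36 to 0.41. Il6 was barely detected, at 5 and 3 counts with DMSO and 2 and 8 with PFI-3, so no difference could be resolved at this depth (log2 fold change 0.27, SE 0.74, adjusted p = 0.824), and its sign turned without DMSO library B (-0.05) or PFI-3 library B (-1.0).

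**Figure D2:**
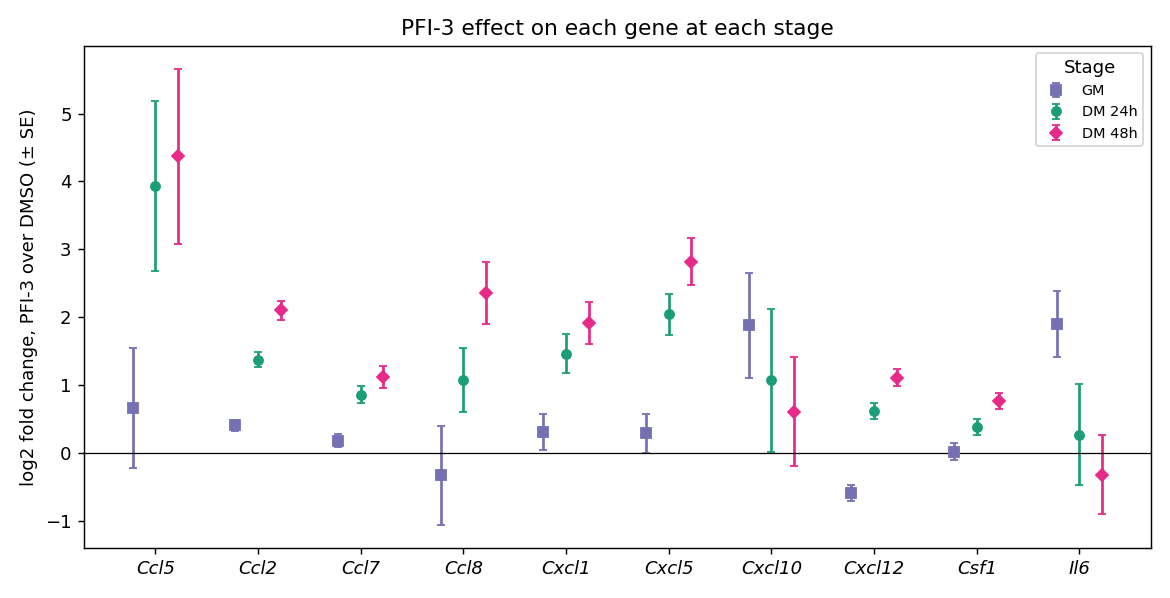
Log2 fold change of PFI-3 over DMSO (points, with bars of 1 SE either way; edgeR) for each of the 10 genes, with squares for GM, circles for DM 24h and diamonds for DM 48h. Ccl5 has values of 3.93 and 4.37 in the DM stages with wide bars, Cxcl12 lies below 0 in GM (-0.59) and above it later (0.62 and 1.11), and Il6 is high only as a point in GM (1.90).

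At DM 48h, the contrast used to pick the genes, the values are descriptive. Ccl5 was 1.3 and 1.31 CPM with DMSO and 24.7 and 29.5 CPM with PFI-3 (log2 fold change 4.37, SE 1.29). Cxcl5 was 22.8 and 21 CPM against 151 and 158 CPM (2.82, SE 0.34), and Ccl8 had 3 and 5 counts against 24 and 20 (2.36, SE 0.46). The PFI-3 libraries lay far above the DMSO libraries in these 3 genes. Ccl2 was 3.82 and 3.11 CPM against 15.7 and 14.1 CPM (2.10, SE 0.14), and Ccl7 was 5.04 and 4.99 CPM against 9.95 and 11.9 CPM (1.12, SE 0.16). Cxcl1 was 10.7 and 9.41 CPM against 36.9 and 38.9 CPM (1.92, SE 0.31). Cxcl12 and Csf1, the genes with the highest counts, had log2 fold changes of 1.11 (SE 0.12) and 0.77 (SE 0.12), at 71.7 and 76.7 against 159.6 and 160.4 CPM for Cxcl12 and 119 and 121 against 209.8 and 200.4 CPM for Csf1. Cxcl10 (1.14 and 1.06 against 2.04 and 1.33 CPM; 0.61, SE 0.80) differed little beside its error, and Il6 overlapped (0.488 and 0.982 against 0.548 and 0.625 CPM; -0.32, SE 0.58). By count, 8 of 10, Ccl8 included, passed the call rule as higher, and 0 as lower, where 13.4% and 14% of all genes tested did. Nothing is read from this count.

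In proliferating cells the PFI-3 effect went in both directions. Of the 7 genes other than Ccl5, Ccl8 and Il6, 1 was called higher, where 5.46% of all genes tested were, and 1 was called lower, where 6.15% were. By position alone, 3 of the 9 genes other than Ccl5, Il6 among them, lay higher with PFI-3 without overlap (21.4% of all genes tested) and 1 lower (24%). Ccl2 was 85.8 and 93.8 CPM with DMSO and 117 and 122 CPM with PFI-3 (log2 fold change 0.41, SE 0.08, adjusted p = 0.00881). Il6 had 9 and 5 counts against 29 and 27 (1.90, SE 0.48); the PFI-3 group is the one through which it passed the filter, and the difference is given without a test. Cxcl12 was 121 and 114 CPM against 91.9 and 64.3 CPM, a fall of 0.59 on the log2 scale (log2 fold change -0.59, SE 0.12, adjusted p = 0.0111). The groups did not overlap in these 3 genes. In an edgeR fit of only the 4 GM libraries the log2 fold changes were 0.43 for Ccl2 and -0.57 for Cxcl12. Their adjusted p values were 0.218 and 0.292. That fit called only 0.275% of all genes tested, against 11.6% in the fit of all 12 libraries. The spread of the larger fit also draws on the DM groups, where replicates were closer than in GM. The calls of Ccl2 and Cxcl12 in GM therefore depend on which spread is used. Cxcl12 was not called with limma on log2(FPKM + 1) (0.0954) or log2(FPKM + 0.1) (0.0957).

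The other genes gave no call in GM. Ccl7 was 48.8 and 60.8 CPM with DMSO and 61.3 and 62.6 CPM with PFI-3 (0.18, adjusted p = 0.283), and Csf1 was 1345 and 962 CPM against 1211 and 1121 CPM (0.02, adjusted p = 0.956). Csf1 turned to -0.21 without DMSO library B (adjusted p = 0.0356) and rose to 0.28 without DMSO library A (0.0173), so its direction rests on which DMSO library is used. Cxcl1 (0.31, adjusted p = 0.469), Cxcl5 (0.29, 0.549), Cxcl10 (1.88, 0.136) and Ccl8 (-0.33, 0.832) had overlapping libraries. Of these, Cxcl1, Cxcl5 and Ccl8 changed sign when 1 of the 4 GM libraries was left out.

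The difference between the PFI-3 effects at DM 24h and in GM was tested directly. Exposure was longer at DM 24h than in GM, so stage and length of exposure cannot be told apart here. Of the 7 genes other than Ccl5, Ccl8 and Il6, 4 had a more positive effect at DM 24h and 0 a less positive one, where 1.78% of all genes tested were called in the first direction and 1.59% in the second. With Ccl8 and Il6 included, none was less positive at an unadjusted p under 0.05 by edgeR or DESeq2, and 1 was by limma. Cxcl12 went from a fall in GM to a rise at DM 24h, a difference of 1.21 on the log2 scale (SE 0.17, adjusted p = 0.00367), and Ccl2 differed by 0.96 (SE 0.14, adjusted p = 0.00378). Both were called in all 17 alternatives. The differences of Cxcl5 (1.75, SE 0.42, adjusted p = 0.0436) and Ccl7 (0.69, SE 0.16, adjusted p = 0.0436) were nearer the threshold and were called in 8 and 7 of 17 alternatives. Both calls were lost without any 1 of the 4 DM 24h libraries, in fits that called fewer of all genes tested. The differences in those fits were 1.67 to 1.84 for Cxcl5 and 0.68 to 0.69 for Ccl7. Cxcl1 (1.15, SE 0.39, adjusted p = 0.134), Csf1 (0.37, 0.266) and Cxcl10 (-0.81, 0.826) were not called. Ccl8 had a value of 1.39 and Il6, larger in GM, of -1.63. Ccl5 differed by 3.27 (SE 1.59), a value that became -2.04 without DMSO library A of GM.

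Most of these genes fell over the first 24 h of differentiation. With DMSO, 5 of the same 7 genes were called lower at DM 24h than in GM (30% of all genes tested were called lower) and 1 higher (30.6%), shares that are high across the transcriptome. Csf1 went from 1345 and 962 CPM to 247 and 256 CPM (log2 fold change -2.20, SE 0.12, adjusted p = 2.24e-08). Ccl2 fell by 3.09 (SE 0.10, adjusted p = 2.14e-10), Ccl7 by 2.26 (SE 0.12, adjusted p = 1.61e-08) and Cxcl1 by 1.59 (SE 0.29, adjusted p = 0.000478), each called in all 13 alternatives. Cxcl5 fell by 0.94 (SE 0.30, adjusted p = 0.0179), from 85.2 and 155 CPM to 66.3 and 58.7 CPM, and lost its call with both limma fits and without GM library B (adjusted p = 0.202) or either DM 24h library (0.0568 and 0.0991). Cxcl12 rose by 0.72 (SE 0.12, adjusted p = 0.000266). Ccl8 (0.89), Cxcl10 (-0.82) and Il6 (-0.75), each with at most 20 counts in these libraries, were not called.

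From DM 24h to DM 48h with DMSO, 5 of the 7 genes were called lower again (23.9% of all genes tested) and 0 higher (24.2%; also 0 at an unadjusted p under 0.05 by edgeR, DESeq2 or limma). Ccl2 fell by a further 1.60 (SE 0.15, adjusted p = 2.97e-06), Cxcl5 by 1.51 (SE 0.34, adjusted p = 0.00301), Cxcl12 by 1.38 (SE 0.12, adjusted p = 2.17e-06), Ccl7 by 1.19 (SE 0.16, adjusted p = 6.12e-05) and Csf1 by 1.07 (SE 0.12, adjusted p = 1.65e-05). These 5 were called in all 13 alternatives. Cxcl12 is the gene that rose at 24 h and then fell below its GM level, to 71.7 and 76.7 CPM. Cxcl1 (-0.65, adjusted p = 0.135), Ccl8 (-0.39, 0.643), Cxcl10 (1.34, 0.308) and Il6 (1.20, 0.151) were not called, although Cxcl1 (1.65e-05) and Cxcl10 (0.027) were in a fit of only the 4 libraries compared.

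With PFI-3 the same step from GM to DM 24h had 3 of the 7 genes called lower (28.2% of all genes tested) and 2 higher (32.1%). Il6 went from 29 and 27 counts to 2 and 8 and Ccl8 from 2 and 3 counts to 11 and 13; each passed the filter through its higher group, and these differences are given without a test. Ccl2 fell by 2.14 (SE 0.09, adjusted p = 2.98e-09), Csf1 by 1.83 (SE 0.12, adjusted p = 1.26e-07) and Ccl7 by 1.57 (SE 0.11, adjusted p = 2.33e-07). Cxcl12 rose by 1.93 (SE 0.12, adjusted p = 1.05e-07), and Cxcl5 rose by 0.81 (SE 0.29, adjusted p = 0.029), from 93.2 and 200.4 CPM to 255 and 259.6 CPM. Cxcl5 lost that call in 5 of 13 alternatives, with a log2 fold change of 0.36 without GM PFI-3 library A. Cxcl1 (-0.44, adjusted p = 0.162) and Cxcl10 (-1.63, 0.0777) were not called. These stage comparisons share libraries with the treatment comparisons above and are not independent of them.

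Per transcript length, in fragments scaled by length and library size (FPKM), the order of the genes shifted with stage. In GM Csf1 was the most abundant of the 10, at 273 ± 53.5 FPKM in the DMSO group and 298 ± 16.8 FPKM in the PFI-3 group (SD, n = 2), followed by Ccl2 at 119 ± 12 and 169 ± 4.32. Below Ccl2, the steps from Cxcl5 (73.7 ± 32.7) through Ccl7, Cxcl1 and Cxcl12 to Ccl5 (28.4 ± 39.1) with DMSO were each smaller than the summed SDs of the neighbours. At DM 24h Cxcl12 led with DMSO (71.5 ± 3, ahead of Csf1 at 63.8 ± 1.21), whereas with PFI-3 Cxcl5 led (168 ± 2.06), followed by Cxcl12 (122 ± 1.03) and Csf1 (85.1 ± 0.212). Ccl5 was low in the order with DMSO (3.12 ± 0.29) and level with Cxcl1 in the middle of the order with PFI-3 (49.6 ± 2.62 and 50.7 ± 3.78). At DM 48h Cxcl12 (29.5 ± 1.74) and Csf1 (28.7 ± 0.332) did not differ beyond their spread with DMSO, and with PFI-3 Cxcl5 (99.5 ± 3.29) again led, with Ccl5 (55.2 ± 6.58) and Csf1 (52.8 ± 2.41) indistinguishable. Ccl8, Cxcl10 and Il6 stayed at about 4 FPKM or lower as group means in all 6 groups. The length used for Cxcl12 ran from 2445 to 3255 bases across libraries, so its FPKM and CPM changes differ. In GM its log2 fold change with PFI-3 was -0.59 by counts and -0.41 by limma on log2(FPKM + 1). From GM to DM 48h with DMSO its group mean went from 118 to 74.2 CPM and from 36.4 to 29.5 FPKM.

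Replicates of proliferating cells disagreed most for Ccl5. It had 382 counts (29.9 CPM) in DMSO library A and 5 counts (0.369 CPM) in library B, and 552 counts (40.2 CPM) in PFI-3 library A and 103 counts (7.34 CPM) in library B. Library A was thus 81.1 times library B with DMSO and 5.47 times with PFI-3, which is the difference used to pick the gene. The PFI-3 libraries of GM overlap the DMSO libraries, and the log2 fold change of 0.66 (SE 0.88) for Ccl5 became 5.97 without DMSO library A, -1.03 without PFI-3 library A and -0.34 without DMSO library B, so that its direction rests on single libraries. At DM 24h and DM 48h the A to B ratio of Ccl5 lay between 0.836 and 1.13.

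The other genes split by letter in both directions. Library A exceeded B in both GM pairs for Cxcl10, Cxcl12, Csf1 and Il6 besides Ccl5, and B exceeded A in both for Ccl2, Ccl7, Ccl8, Cxcl1 and Cxcl5. Over all genes tested, 31.1% were higher in A in both pairs and 30.8% in B. Cxcl10 had 20 and 58 counts in the A libraries and 0 and 21 in the B libraries; a count of 0 allows up to 3 counts at this depth, by counting error alone. Cxcl1 and Cxcl5 went the opposite way to Ccl5, with A to B ratios of 0.611 and 0.513 for Cxcl1 and of 0.551 and 0.465 for Cxcl5, with DMSO and PFI-3 in turn.

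Interferon and RNA-sensing genes were compared in the same GM libraries. Of the 26 tested genes of that list, 6 were at least 2 times higher in A than in B in both pairs (23.1%, against 1.66% of all genes tested): Ifih1, Ifit1, Ifit3, Isg15, Rsad2 and Oasl1, singled out after their values were seen. Ifit3 and Rsad2 each had 6 counts in DMSO library A and 0 in B, too few to give a ratio for that pair. Ifit1, an RNA-binding interferon-induced protein, had 61 and 4 counts with DMSO and 224 and 48 with PFI-3. Isg15, a ubiquitin-like interferon-induced protein, had 65 and 7 counts with DMSO and 160 and 31 with PFI-3. In the DM groups the A to B ratios of Ifit1 and Isg15 lay between 0.79 and 1.22. Whether the GM split of Ccl5 and Cxcl10 belongs to culture, RNA or library was not tested.

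**Figure D3:**
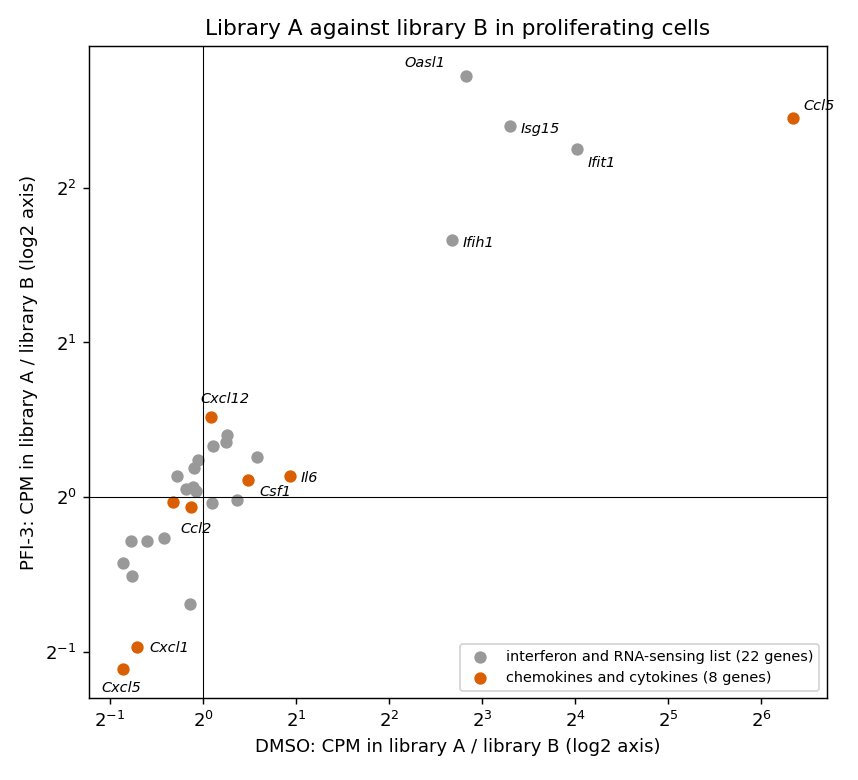
Ratio of CPM in library A to library B of proliferating cells, with DMSO (horizontal, log2 axis) and with PFI-3 (vertical, log2 axis), for the 8 chemokine and cytokine genes (orange) and 22 interferon and RNA-sensing genes (grey) with a ratio in both. Ccl5 is at the far upper right (81.1 and 5.47), well beyond Ifit1 (16.2 and 4.76), Isg15, Oasl1 and Ifih1 on the horizontal axis, while Cxcl1 and Cxcl5 lie at the lower left.

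The genes whose CPM profile over the 12 libraries was most like that of Ccl5, by Pearson correlation of log2(CPM + 1), were Ndst4 (0.863), Mthfsd (0.861), Apbb3 (0.861), Ttll3 (0.859) and Man1b1 (0.852). Among the other 9 genes Cxcl10 was nearest to Ccl5 (0.704), ahead of Cxcl5 (0.576) and Cxcl1 (0.524). For Ccl2 the nearest were Ddx41 (0.993), Pola2 (0.992), Neurl3 (0.992), Crim1 (0.990) and Snx9 (0.989), and among the 10 it was Ccl7 (0.991). These likenesses describe the same 12 libraries, which share stage and treatment, and carry no test.

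Receptors for these ligands were mostly weak: of 14 in the list, 12 were listed in some library and 5 passed the filter. At DM 24h 1 of the 5 was called higher with PFI-3 (12.2% of all genes tested) and 0 lower (11.4%; 1 at an unadjusted p under 0.05 by edgeR, 0 by DESeq2 or limma). The gene was Il6ra, the Il6 receptor, at 5.94 and 5.96 CPM with DMSO and 13.4 and 10.7 CPM with PFI-3 (log2 fold change 1.01, SE 0.19, adjusted p = 0.00255). The Cxcl12 receptors Cxcr4 and Ackr3 were called lower with PFI-3 in GM (-0.95, SE 0.20, and -0.37, SE 0.08) and at DM 48h (-0.54, SE 0.16, and -0.95, SE 0.07) but not at DM 24h, and the difference between the GM and DM 24h effects was called by edgeR for 0 of the 5 receptors (2 at an unadjusted p under 0.05; 1 called by DESeq2, 0 by limma). In GM, Cxcr4 went from 24.3 and 31.5 CPM to 10.2 and 18.7 CPM, alongside Cxcl12 itself. Cxcr2, the receptor of Cxcl1 and Cxcl5, was called higher in GM (1.56, SE 0.42) at levels of 0.47 to 2.76 CPM. With only the 4 GM libraries in the fit, edgeR called 0 genes in GM for the receptors and for each of the 4 lists below, but also only 0.275% of all genes tested. At an unadjusted p under 0.05 that fit had 1 receptor higher and 2 lower, 2 NF-kappaB genes higher and 3 lower, 4 interferon genes and 5 interleukin-6 family genes higher, and 0 of the other chemokines and cytokines. Csf1r had 2 to 7 counts in each library and did not pass the filter.

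Of 14 other chemokines and cytokines tested, 1 was called higher and 2 lower at DM 24h (12.2% and 11.4% of all genes tested), with a median log2 fold change of -0.49. Mif, a widely expressed cytokine, rose by 0.39 (SE 0.08, adjusted p = 0.00476). Cxcl13, a B cell attractant, was at 1.03 and 1.24 CPM with DMSO and 0.228 and 0 CPM with PFI-3 (log2 fold change -3.21, SE 0.81). It passed the filter through the DMSO groups of differentiating cells. Its falls are therefore given without a reading, although the counts of this list include it. Lif, of the interleukin-6 family, fell by 1.14 (SE 0.25, adjusted p = 0.00624) from 3.25 and 3.64 CPM to 1.45 and 1.68 CPM. In GM, edgeR, DESeq2 and limma called 0 of the 14 (0 at an unadjusted p under 0.05 by edgeR, 1 each by DESeq2 and limma). At DM 48h 1 was called higher (Il18, 0.92, SE 0.28) and 5 lower (13.4% and 14% of all genes tested), Cxcl13 (-2.01, SE 0.49) among them. The 5 include Il15 (-1.45, SE 0.45), at 1.87 and 1.8 CPM with DMSO and 0.548 and 0.781 CPM with PFI-3. Il15 passed the filter through that DMSO group, so its fall is given without a reading. Ccl11, an eosinophil attractant encoded between Ccl7 and Ccl8, rose in DMSO cells from GM to DM 24h (4.85, SE 0.62), while Ccl2 and Ccl7 fell. Ccl11 was at most 0.57 CPM in GM and passed the filter through the DM groups, so its rise is also given without a reading. Tnf and Il1b, the classical inducers of NF-kappaB, stayed at or under 0.651 CPM in every library.

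Of 19 tested NF-kappaB subunits and feedback targets, 3 were called higher with PFI-3 at DM 24h, a share near the 12.2% of all genes tested. None of them was called lower, where 11.4% of all genes tested were (2 were lower at an unadjusted p under 0.05 by edgeR). A fit of only the 4 DM 24h libraries called 6 higher and 4 lower, and 46.5% of all genes it tested in either direction. The list's median was -0.09. Ikbke, an IKK-related kinase, rose by 0.67 (SE 0.18, adjusted p = 0.0178) and Bcl3, a nuclear IkappaB protein, by 0.47 (SE 0.09, adjusted p = 0.00421). The remaining called gene was Nfkbiz (0.34, SE 0.09, adjusted p = 0.0134). Nfkbia and Tnfaip3, feedback inhibitors switched on by NF-kappaB, were at 58.6 and 61.3 against 71.7 and 66.9 CPM and at 13.8 and 14.3 against 11.8 and 12.3 CPM, and neither was called. In GM, 2 were called higher, led by Ikbke (1.10, SE 0.20), and 3 lower, led by Nfkbie (-0.83, SE 0.15), where 5.46% and 6.15% of all genes tested were called. Nfkbia was among those lower in GM (-0.54, SE 0.11). The PFI-3 effect was called more positive at DM 24h than in GM for 2 genes, Nfkbia (0.74, SE 0.15) and Vcam1 (0.50, SE 0.11). It was called less positive for 0 (1.78% and 1.59% of all genes tested), with 2 less positive at an unadjusted p under 0.05 by edgeR. At DM 48h, 1 was called higher and 3 lower (13.4% and 14% of all genes tested).

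Of 26 tested interferon and RNA-sensing genes, 6 were called higher and 0 lower at DM 24h (0 lower at an unadjusted p under 0.05 by edgeR, DESeq2 or limma), where 12.2% and 11.4% of all genes tested were called, with a list median of 0.38. Dhx58, an RNA-sensing helicase, rose by 1.19 (SE 0.25, adjusted p = 0.00481) from 2.06 and 1.7 CPM to 4.11 and 4.5 CPM. Tlr4, the lipopolysaccharide receptor, rose by 0.69 (SE 0.20, adjusted p = 0.0249). In GM 3 were called higher and 0 lower (5.46% and 6.15% of all genes tested), including Dhx58 (0.96, SE 0.28) and Ddx58, which encodes the RNA sensor RIG-I (0.81, SE 0.10). At DM 48h 5 were called higher and 0 lower (13.4% and 14% of all genes tested), led by Irf7 (1.75, SE 0.34) and Dhx58 (1.43, SE 0.23). At an unadjusted p under 0.05 by edgeR, 2 were lower. A fit of only the 4 DM 48h libraries called 9 higher and 8 lower, and 46.8% of all genes it tested in either direction. Ifit1 at DM 48h was 63.8 and 56.9 CPM with DMSO and 27 and 27.9 CPM with PFI-3, the opposite order to Ccl5 in those libraries, but it was not called.

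Of 17 genes of interleukin-6 family signalling, 7 were called higher and 1 lower at DM 24h (12.2% and 11.4% of all genes tested), with a list median of 0.25. Osmr, the oncostatin M receptor, rose by 1.10 (SE 0.10, adjusted p = 2.05e-05) from 27.2 and 26.8 CPM to 57.8 and 58.2 CPM, and Il11ra1, the interleukin-11 receptor, by 1.08 (SE 0.24, adjusted p = 0.00695). Il6ra is counted here as well, and Lif is the gene that fell. In GM 5 were called higher, led by Cebpb (0.55, SE 0.08) and Lifr (0.48, SE 0.08), and 0 lower (5.46% and 6.15% of all genes tested). At DM 48h 4 were called higher and 5 lower (13.4% and 14%), led by Il11ra1 (0.84, SE 0.25) and Lif (-1.11, SE 0.19).

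**Figure D4:**
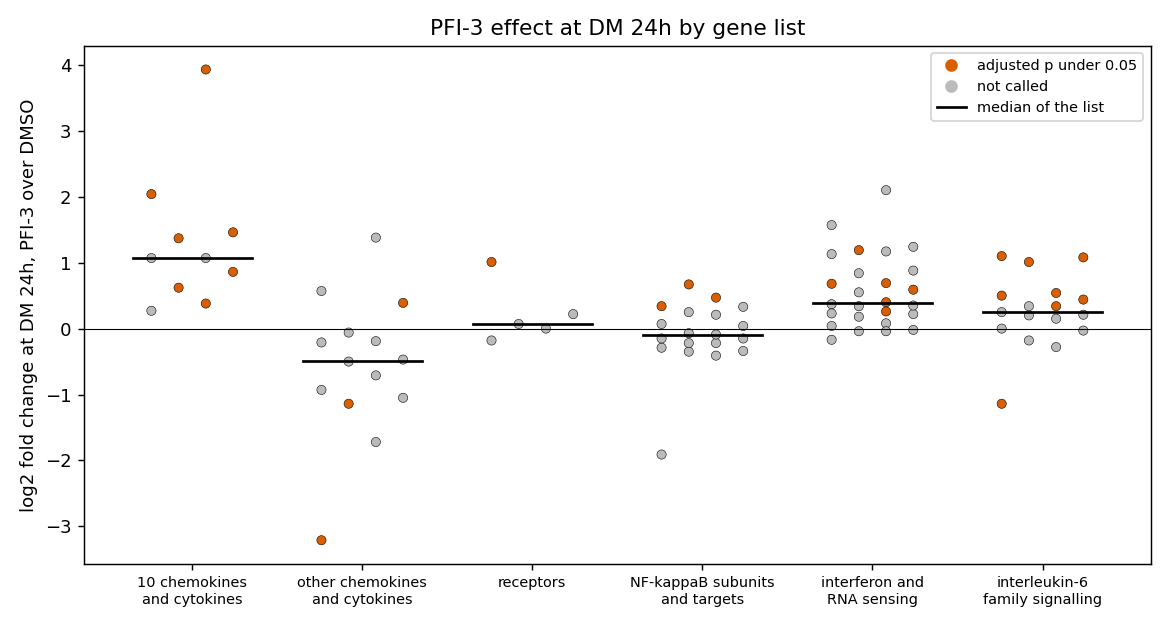
Log2 fold change of PFI-3 over DMSO at DM 24h (edgeR) for the 10 chemokine and cytokine genes and for the tested genes of 5 lists, with 1 point per gene (orange where the adjusted p is under 0.05) and a line at each median. The medians are 1.07 for the 10 genes, -0.49 for other chemokines and cytokines and 0.38 for interferon and RNA sensing, and 7 of the 10 genes are orange.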

How the data were processed

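Per the labels, total RNA of 12 C2C12 samples was sequenced by a provider. The submitters' processing notes name mm10, HISAT, StringTie, Cufflinks, Bowtie, RSEM and DESeq2, without role; which tool made these tables is not given in the sources used here. The authors deposited 1 table per library with an expected count per gene, which is not normalized. The deposited FPKM values are adjusted for transcript length and sequencing depth, per the headers of the files. A gene missing from a table was taken as 0. Groups and replicate letters came from sample titles.

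Expected counts were rounded and fitted with edgeR 4.0.16 (R 4.3.3): quasi-likelihood test, TMM scaling, filterByExpr, 1 model of 6 groups over 12 libraries, Benjamini-Hochberg adjustment over all 12545 genes, called under 0.05. CPM uses TMM-adjusted totals. On simulated data for PFI-3 against DMSO at DM 24h over 12545 genes, 93% of 200 genes changed 2-fold were recovered and 6.06% of calls were false. The changed genes were drawn from those with a mean above 2 CPM, and all groups were given the same spread per gene. These rates therefore do not cover Ccl8, Cxcl10 and Il6, or the wider spread between GM replicates. Alternatives were other size factors, DESeq2 1.42.0, other filters, limma 3.58.1 on log2(FPKM + 1) and log2(FPKM + 0.1), only the libraries compared, a replicate block, and each library left out.

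The 10 genes, the pathway and marker lists and the tests were chosen with earlier results of these data known. Beside the 10, the text names the 5 genes most like Ccl5 and Ccl2. Per list and contrast, it names up to 2 called genes with the largest rise and 2 with the largest fall. Tnf, Il1b, Nfkbia, Nfkbiz, Tnfaip3, Csf1r and the GM interferon genes were named after their values were seen. Promoters came from RefSeq. Tables and figures used Python 3.11.15, pandas 2.3.3 and matplotlib 3.10.9.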

Additional observations from a re-analysis of the deposited data

Results flagged for a closer look

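The effect of PFI-3 differed between DM 24h and GM, by a test of the difference itself (edgeR, Benjamini-Hochberg adjusted), for 4 genes. On the log2 scale the effect was larger at DM 24h by 1.21 for Cxcl12, which lay lower with PFI-3 in both GM libraries and higher in both DM 24h libraries, and by 0.96 for Ccl2, which lay higher at both stages. It was larger by 1.75 for Cxcl5 and by 0.69 for Ccl7, and these 2 were the less stable calls. Length of exposure also differed between the 2 stages and cannot be told apart from stage.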

How the results depend on the processing

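Each of the 7 comparisons was recomputed under its alternatives; the counts here include Ccl8 and Il6. The numbers of called genes moved by more than 1.5 times in 2 of them. In GM, 0 of 8 genes tested were called for PFI-3 with only the 4 GM libraries in the fit, against 3 of 9; that fit called 0.275% of all genes tested. With the replicate block added to it, 3 of 8 and 6.36% of all genes tested were called. For the difference between the DM 24h and GM effects, 2 were called against 4 with limma on log2(FPKM + 1), with limma on log2(FPKM + 0.1), with only the libraries compared, and with those libraries and a replicate block. Leaving out each library in turn left 1 library in an arm, which was assumed to vary like the others. The calls of those fits are therefore not counted here. For PFI-3 at DM 24h those fits called fewer of all genes tested, and Ccl5 and Csf1 lost their calls. Their log2 fold changes there were 3.84 to 4.02 for Ccl5 and 0.36 to 0.41 for Csf1.

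The replicate letters were not treated as pairs over the series: same-letter libraries deviated together in GM (correlation 0.504) but not in the DM 24h and DM 48h groups (0.029 and 0.047). With the letter as a replicate block in the fit of all libraries, the PFI-3 calls numbered 3, 7 and 8 in order of stage, 6, 5 and 7 for the stage comparisons in the order above, and 4 for the difference between effects, as without it.

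Changes of sign, in log2 fold change, of tested values concerned genes not called in the fit as reported; of them, Csf1 in GM without DMSO library B was called (adjusted p = 0.0356). For PFI-3 in GM these were Ccl8 (0.19 without DMSO library B, range -0.68 to 0.19 over the libraries left out), Cxcl1 (0.00 without DMSO library A and -0.26 without PFI-3 library B, range -0.26 to 0.71), Cxcl5 (-0.07 and -0.37 in the same fits, range -0.37 to 0.79) and Csf1 (-0.04 without PFI-3 library A and -0.21 without DMSO library B, range -0.21 to 0.28). At DM 24h it was Il6 (-0.05 without DMSO library B and -1.0 without PFI-3 library B, range -1.0 to 0.94). For DMSO DM 24h against GM it was Cxcl10 (0.36 with limma on log2(FPKM + 0.1) and 5.52 without GM library A, where the remaining GM library is at 0 counts, against -1.84 without GM library B), for DMSO DM 48h against DM 24h Ccl8 (0.07 without DM 24h library A, range -0.79 to 0.07), for PFI-3 DM 24h against GM Cxcl1 (0.12 without GM library B, range -0.84 to 0.12), and for the difference between effects Cxcl10 (0.11 without GM PFI-3 library A and 0.21 without GM DMSO library B, range -7.14 to 0.21). Among values given without a test, Ccl5 turned in GM (-1.03 without PFI-3 library A and -0.34 without DMSO library B, against 0.66), for DMSO DM 24h against GM (2.06 without GM library A, against -3.25) and for the difference between effects (-2.04 without GM DMSO library A, against 3.27), and its PFI-3 DM 24h against GM value of 0.02 lay just below 0 or at -0.74 in 5 alternatives. Il6 at DM 48h turned to 0.26 without DMSO library B, against -0.32. The cause was not tested. Of the other tested values of single genes, 643 kept their direction and side of the threshold, 46 lost a call and 19 gained one. Depth limits Ccl8, Cxcl10 and Il6, whose median counts over libraries were 4.5, 14.5 and 7.5.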
